A study of Mus musculus with 16 samples.

Results

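The 32 genes described here encode the machinery of glucose uptake, glycolysis, lactate handling and the transcriptional response to low oxygen. They were taken as a fixed list of mouse symbols and looked up in a table of raw read counts through their Entrez gene identifiers, and all 32 had a row among the 27179 genes of the table. Of these, 31 passed the filter on low counts, which left 12589 genes to be tested, and Ldhb did not. The list holds 2 sugar transporters, 3 hexokinases, 12 enzymes of the later steps of glycolysis, 6 genes of lactate and pyruvate handling, 2 enzymes that set the level of fructose 2,6-bisphosphate, 5 genes for the hypoxia-inducible factor and its control, and 2 further hypoxia targets.

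Glycolysis splits glucose into pyruvate and yields ATP without oxygen, and lactate dehydrogenase turns pyruvate into lactate, which leaves the cell through monocarboxylate transporters. The hypoxia-inducible factor HIF pairs an oxygen-labile alpha subunit (Hif1a) with a stable partner (Arnt), binds short DNA elements and switches on many glycolytic genes. The prolyl hydroxylases Egln1 and Egln3 mark the alpha subunit for destruction by the VHL ubiquitin ligase. Macrophages given lipopolysaccharide (LPS), the bacterial glycolipid sensed by TLR4, are known to raise glucose uptake and lactate output, and the alpha subunit is known to take part in this at normal oxygen.

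RNA was sequenced from a single line of immortalised mouse bone-marrow-derived macrophages, named iBMDM MyD88-AGF with the genotype MyD88-AGF WT in every group, so no group differed in genotype. Each of the 4 groups had 4 libraries. Untreated cells received no LPS, and the other 3 groups received LPS at 10 ng/mL for 6 h. Responders were the LPS-treated cells in the high side-scatter gate of a cell sorter and bystanders those in the low gate, side scatter being the light a cell's internal structures deflect. The LPS pool and the untreated cells went through the sorter without a gate and were collected after the gated cells. In comparisons of a gate with the pool, the gate and the order of collection therefore cannot be told apart. In comparisons of a gate with untreated cells, LPS, the gate and the order of collection cannot be told apart. Whether replicates came from separate cultures is not in the labels, and every p-value therefore measures no more than the spread among these samples, possibly a technical one.

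The libraries held 15287344 to 25193162 counts. All 10 macrophage markers had reads in every group, with a summed level of 3771 to 5434 CPM (counts scaled to a common library size), while neutrophil, erythroid and lymphocyte lists reached at most 2.24, 0.993 and 2.71 CPM and the fibroblast list lay between 2.79 and 107 CPM. A set of 6 libraries (LPS pool 3 and 4, bystander 3 and 4, responder 1 and untreated 1) held 56 to 87 reads of the neuronal gene Dcx, against at most 1 in the other 10. Over the 22 genes of the neural list the summed level was 471 to 517 CPM in untreated libraries, 437 to 468 in bystanders, 314 to 360.0 in responders and 346 to 377 in the pool. Only in responders were list genes at 0 in every library of a group (Nefm and Sncb). Bystander 3 and 4 also held the cytokine gene Il1b at 64.1 and 65.1 CPM, against 7.79 and 9.03 in bystander 1 and 2. Results between the gates and between pool and untreated cells are given for all libraries, without these 6 and within them.

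Levels are CPM on TMM-scaled library sizes (the trimmed mean of M-values), which centres the typical gene between libraries. The scaling factors ran from 0.893 in responders to 1.17 in untreated libraries, so the choice matters for small differences. With library totals alone, the median log2 fold of all genes tested moved from -0.01 to -0.20 for responder against bystander and from -0.03 to -0.36 for LPS pool against untreated. Differences below are relative to the typical gene. Each member called under either scaling whose direction turned with library totals is named.

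Promoters of 5 members are shown because these genes moved apart between the gates: Slc2a1, Slc2a6 and Hk2 were higher in responders than in bystanders, and Pdk1 and Bnip3 lower. Each runs 5′ to 3′ on the gene's strand from 250 bases before to 50 after the start in RefSeq (GRCm38.p6), and capitals mark ACGTG or GCGTG, the core letters of the hypoxia-response element, or their reverse complements CACGT and CACGC, with overlapping matches merged. The regions are chr4:119108495-119108794 (plus strand) for Slc2a1, chr2:27027949-27028248 (minus) for Slc2a6, chr6:82774405-82774704 (minus) for Hk2, chr2:71872974-71873273 (plus) for Pdk1 and chr7:138909457-138909756 (minus) for Bnip3.
Slc2a1: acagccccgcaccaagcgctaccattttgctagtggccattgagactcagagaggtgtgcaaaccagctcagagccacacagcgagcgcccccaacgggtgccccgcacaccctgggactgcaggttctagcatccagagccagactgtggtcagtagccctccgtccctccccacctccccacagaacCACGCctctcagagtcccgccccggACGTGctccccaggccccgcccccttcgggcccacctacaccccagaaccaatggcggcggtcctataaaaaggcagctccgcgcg
Slc2a6: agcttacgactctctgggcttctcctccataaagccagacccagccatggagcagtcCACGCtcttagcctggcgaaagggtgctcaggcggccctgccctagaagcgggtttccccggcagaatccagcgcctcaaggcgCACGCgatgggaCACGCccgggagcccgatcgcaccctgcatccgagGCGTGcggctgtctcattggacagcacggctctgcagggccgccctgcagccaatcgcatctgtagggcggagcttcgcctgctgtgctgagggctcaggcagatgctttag
Hk2: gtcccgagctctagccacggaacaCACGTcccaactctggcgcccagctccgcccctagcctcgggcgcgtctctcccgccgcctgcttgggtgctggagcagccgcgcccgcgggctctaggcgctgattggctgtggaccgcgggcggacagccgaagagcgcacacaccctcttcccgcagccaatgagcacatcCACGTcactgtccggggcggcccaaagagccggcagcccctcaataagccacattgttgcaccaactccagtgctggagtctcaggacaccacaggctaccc
Pdk1: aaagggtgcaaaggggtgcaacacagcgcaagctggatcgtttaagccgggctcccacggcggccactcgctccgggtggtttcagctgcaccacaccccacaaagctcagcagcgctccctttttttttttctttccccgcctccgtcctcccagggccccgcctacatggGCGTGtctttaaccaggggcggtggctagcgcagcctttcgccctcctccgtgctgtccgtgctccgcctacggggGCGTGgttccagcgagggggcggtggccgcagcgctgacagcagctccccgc
Bnip3: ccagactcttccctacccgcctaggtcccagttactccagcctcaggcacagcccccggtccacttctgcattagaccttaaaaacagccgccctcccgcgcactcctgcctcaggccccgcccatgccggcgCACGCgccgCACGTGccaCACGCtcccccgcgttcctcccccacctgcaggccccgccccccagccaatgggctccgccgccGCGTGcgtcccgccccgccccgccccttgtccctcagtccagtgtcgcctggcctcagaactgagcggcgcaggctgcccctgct
Hk2 and Slc2a1 held the ACGTG form, Hk2 at 2 places and Slc2a1 at 1, while Slc2a6 and Pdk1 held the GCGTG form alone, at 4 and 2 places, and Bnip3 held ACGTG at 1 of its 4 places. ACGTG or its reverse complement was present in the promoters of 17 of the 32 members (53.1%), against 26.3% of the 9701 promoters of tested genes that had an entry. With GCGTG counted as well, 25 of the 32 members held a match, against 63.4% of those promoters. ACGTG stood in 6 of the 9 members that were higher in responders under both scalings and in 4 of the 10 that were lower, so these letters were found in members of both directions. The kappaB consensus, the site class of the LPS-activated factor NF-kappaB, had a match in 1 member (Vegfa), against 5.03% of all promoters.

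Responders differed from bystanders of the same LPS treatment in most members, in both directions. Of the 31 tested, 18 were higher in responders, 10 lower and 3 without a call at an adjusted p of 0.05 in edgeR's quasi-likelihood test, beside 34.7% of all tested genes called higher and 35.3% lower, or 70% in either direction. The 4 responder and 4 bystander libraries did not overlap for 27 members, against 63.9% of all genes, and 8 members were called and at least 1.5-fold apart, against 24% of all genes. The members' median log2 fold was 0.10 and that of all genes -0.01. Under library totals 9 members were higher and 17 lower, and their median was -0.09. Of all 12589 genes tested, 2580 were then higher and 6695 lower, with a median of -0.20. The members' excess of higher over lower calls thus depended on the scaling. The 9 called higher both ways were Hif1a, Hk2, Ldha, Pfkfb3, Slc16a3, Slc2a1, Slc2a6, Vegfa and Vhl, and the 10 called lower both ways were Aldoc, Arnt, Bnip3, Egln1, Gpi1, Pdk1, Pfkfb4, Pfkm, Pfkp and Pkm. In the 10 libraries without neural transcripts the counts were again 18 and 10, beside 4028 and 4026 of the 12642 genes then tested. The 6 libraries with them include only 1 responder library. There the members' median log2 fold was 0.089 and that of all genes -0.0069. In bulk RNA, fewer cells of a type and less RNA per cell cannot be told apart.

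In the ungated LPS pool, 22 members were higher and 6 lower than in untreated cells, with 3 without a call, beside 34.1% of all genes called higher and 37.8% lower (71.9% in either direction, edgeR). The libraries of 27 members did not overlap (64.9% of all genes), and 10 members were called and at least 1.5-fold apart (27.4% of all genes). The members' median was 0.21 and that of all genes -0.03. When only library totals were used the counts became 8 higher and 19 lower with a median of -0.12. Of all 12589 genes tested, 2216 were then higher and 8027 lower, with a median of -0.36. The 8 members higher both ways were Hif1a, Hk1, Hk2, Hk3, Pdk3, Pfkfb3, Slc2a1 and Slc2a6, and Egln1, Egln3, Pdk1, Pfkfb4, Pfkm and Slc16a1 were lower both ways. In the libraries without neural transcripts 22 were higher and 5 lower, beside 4124 and 4384 of the 12642 genes then tested. The libraries with them include only 1 untreated library. There the members' median log2 fold was 0.21 and that of all genes -0.021.

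**Figure D1:**
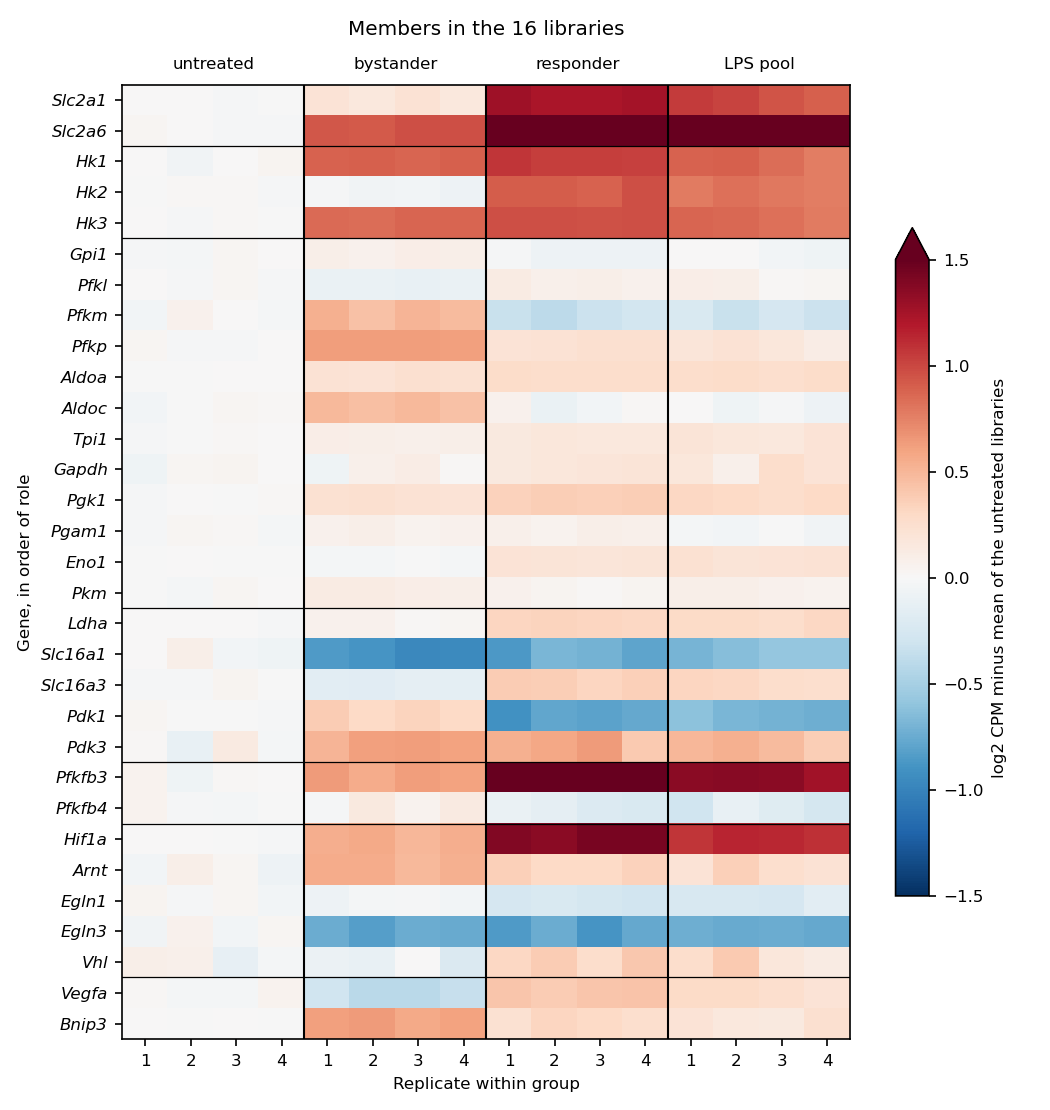
Log2 CPM (TMM-scaled) of the 31 tested members in the 16 libraries, minus the mean of the 4 untreated libraries; rows are genes in order of role, columns are replicates 1 to 4 within each group, and the colour scale stops at 1.5 in either direction. Slc2a1, Slc2a6, Pfkfb3 and Hif1a are darkest red in responders and the LPS pool, Hk2 is near white in bystanders alone among the LPS-treated groups, while Pdk1 and Pfkm are red in bystanders and blue in responders.

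The sugar transporters stood out by size. Slc2a1, the GLUT1 glucose transporter gene (chromosome 4, 119108745 to 119137330), stood at 238, 239, 235 and 237 CPM in untreated libraries 1 to 4, at 274, 265, 275 and 265 in bystanders, at 572, 555, 552 and 562 in responders and at 489, 479, 457 and 440.0 in the LPS pool. The 4 groups did not overlap, in the order untreated, bystander, LPS pool, responder. It was 2.08-fold higher in responders than in bystanders (log2 1.05, SE 0.023, adjusted p = 6.97e-45, edgeR) and 1.97-fold higher in the pool than in untreated cells (adjusted p = 5.86e-43). Bystanders were 1.14-fold above untreated cells (adjusted p = 5.28e-10, edgeR), a difference that came to a log2 of -0.0073 (adjusted p = 0.796) with library totals alone. Slc2a6, which encodes the GLUT6 transporter (chromosome 2, 27021363 to 27028000), stood at 65.2, 63.8, 62.8 and 63.0 CPM in untreated libraries 1 to 4, at 121, 121, 125 and 125 in bystanders, at 401, 399.7, 395 and 389.9 in responders and at 378, 375, 368 and 359 in the LPS pool. Responders and the pool lay far above the other groups, bystanders lay between them and the untreated cells, and no groups overlapped. Its fold was 3.22 for responder against bystander (log2 1.69, SE 0.023, adjusted p = 8.47e-57, edgeR), 5.81 for LPS pool against untreated (adjusted p = 6.93e-65) and 1.93 for bystander against untreated (adjusted p = 3.51e-39). Per kilobase of the principal transcript, Slc2a6 made up 29.1% ± 0.281 of the summed level of both transporters in untreated cells, 41.0% ± 0.599 in bystanders, 51.9% ± 0.431 in responders and 54.8% ± 0.613 in the pool (SD, n = 4 each). Such a share is taken within a library and does not depend on the scaling, but it rests on the transcript lengths used. Per kilobase it passed from below to above that of Slc2a1 between bystanders and responders. In CPM, without length, the mean of Slc2a1 lay above that of Slc2a6 in every group. It was 560 against 397 in responders and 466 against 370 in the pool.

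The 3 hexokinases, which trap glucose as its 6-phosphate, did not behave alike. Hk2, the inducible mitochondria-bound form (chromosome 6, 82725025 to 82774454), stood at 207, 211, 210.5 and 205 CPM in untreated libraries 1 to 4, at 205, 200.3, 203 and 198 in bystanders, at 393, 393, 384 and 408 in responders and at 359, 369, 360.5 and 356 in the LPS pool. Responders and pool were high. Bystanders lay just below the untreated libraries, without overlap, and without a call under TMM scaling. Library totals alone moved bystanders further below untreated cells, as the median log2 fold of all genes in this comparison went from 0.010 to -0.18. Hk2 was 1.96-fold higher in responders than in bystanders (log2 0.97, SE 0.022, adjusted p = 6.97e-45, edgeR) and 1.73-fold higher in the pool than in untreated cells (adjusted p = 2.51e-40), and for bystander against untreated the log2 fold was -0.047 (95% interval -0.091 to -0.0028, adjusted p = 0.0607). Hk1, the widely expressed form (chromosome 10, 62268855 to 62379920), stood at 126, 121, 126 and 129 CPM in untreated libraries 1 to 4, at 231, 233, 229.6 and 233 in bystanders, at 263, 257, 257 and 255 in responders and at 231, 234, 224 and 213 in the LPS pool. Every LPS-treated library lay above the untreated ones, and its rise was present in both gates: 2.06-fold in responders and 1.84-fold in bystanders against untreated (adjusted p = 1e-43 and 2.06e-39, edgeR), and 1.80-fold in the pool (adjusted p = 4.07e-38). Hk3, a form abundant in myeloid cells (chromosome 13, 55005985 to 55021475), stood at 415, 407, 417 and 409 CPM in untreated libraries 1 to 4, at 743, 737, 753 and 754 in bystanders, at 808, 802, 798 and 804 in responders and at 754, 747, 729.9 and 707 in the LPS pool. The LPS-treated libraries again all lay above the untreated ones, and Hk3 was raised by 1.95-fold in responders and 1.81-fold in bystanders (adjusted p = 1.36e-47 and 1.4e-44, edgeR), and by 1.78-fold in the pool (adjusted p = 7.01e-44). Between the gates Hk1 and Hk3 differed by only 0.16 and 0.10 on the log2 scale (adjusted p = 3.57e-08 and 2.82e-06, edgeR), and both differences turned to -0.034 and -0.086 with library totals alone. Per kilobase, Hk2 made up 19.1% ± 0.323 of the hexokinase level in untreated cells, 11.1% ± 0.193 in bystanders, 18.4% ± 0.387 in responders and 18.6% ± 0.374 in the pool (SD, n = 4 each). The bystander libraries, at 10.9 to 11.3%, lay apart from the other 12, and Hk3 was the largest share in every group, at 70.6% ± 0.268 in bystanders against 64.5% ± 0.206 in untreated cells.

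**Figure D2:**
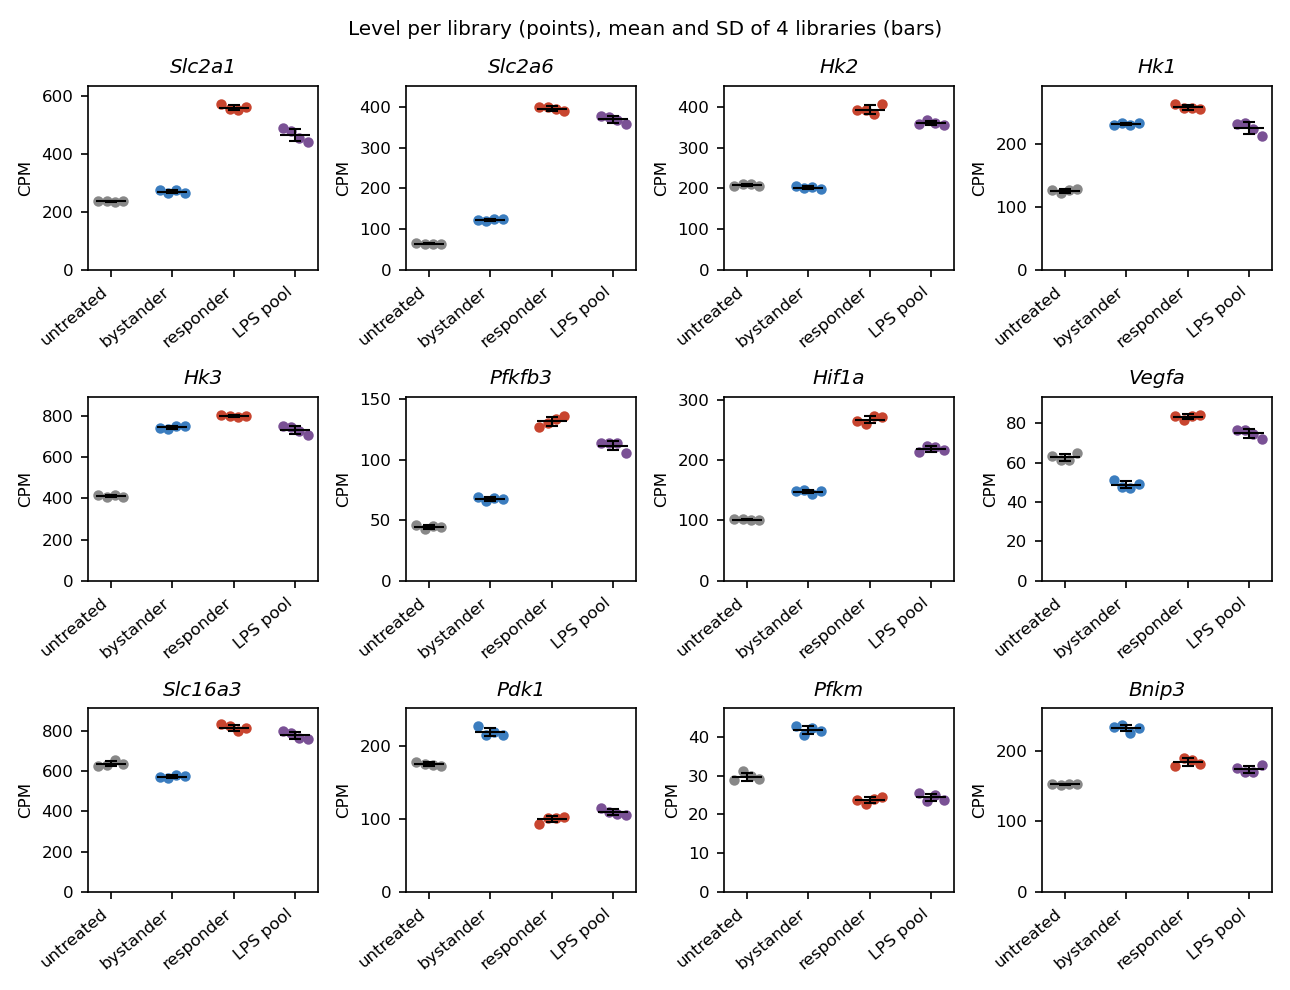
Level in CPM (TMM-scaled, linear axis from 0) of 12 members in the 16 libraries; points are libraries and the bars show mean and SD of 4 libraries per group. Hk2 sits near 200 CPM in untreated and bystander libraries and near 400 in responders, while Hk1 and Hk3 rise in both gates, and Pdk1, Pfkm and Bnip3 are highest in bystanders.

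Phosphofructokinase, the committed step of glycolysis, shifted between its subunit genes. Pfkm, the muscle-type subunit (chromosome 15, 98092589 to 98132447), stood at 28.8, 31.2, 29.8 and 29.1 CPM in untreated libraries 1 to 4, at 42.9, 40.4, 42.2 and 41.4 in bystanders, at 23.6, 22.7, 23.8 and 24.5 in responders and at 25.4, 23.5, 25.02 and 23.8 in the LPS pool. Bystanders lay above and responders below the untreated libraries, with no overlap between these 3 groups. Pfkm was 1.76-fold lower in responders than in bystanders (log2 -0.82, SE 0.048, adjusted p = 1.83e-23, edgeR), 1.41-fold higher in bystanders than in untreated cells (adjusted p = 9.61e-15) and 1.22-fold lower in the pool than in untreated cells (adjusted p = 1.77e-06). Pfkp, the platelet-type subunit, stood at 357 ± 5.61 CPM in untreated cells, 551 ± 2.34 in bystanders and 419 ± 4.97 in responders (SD, n = 4 each). Responders were 1.32-fold below bystanders (adjusted p = 2.8e-26, edgeR), and with library totals alone the log2 folds against untreated turned from 0.23 to -0.15 in responders and from 0.17 to -0.15 in the pool (402 ± 11.5 CPM). Pfkl, the liver-type subunit, went the other way, at 359 ± 1.21 CPM in bystanders and 409 ± 6.54 in responders (log2 0.19, adjusted p = 4.82e-12, edgeR), though this came to -0.0035 with library totals alone. Per kilobase, the share of Pfkl in the 3 subunits was 51.7% ± 0.518 in untreated cells, 39.5% ± 0.163 in bystanders, 50.1% ± 0.617 in responders and 50.5% ± 0.537 in the pool, and that of Pfkp 43.1% ± 0.5802, 54.5% ± 0.171, 46.1% ± 0.572 and 45.6% ± 0.513 (SD, n = 4 each). On this scale per kilobase, which rests on the transcript lengths used, Pfkp exceeded Pfkl in bystanders alone. In CPM, without length, the mean of Pfkp lay above that of Pfkl in responders and the pool too.

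The other enzymes between hexokinase and pyruvate kinase moved little. Aldoc, the brain-type aldolase, was the exception: it stood at 119 ± 2.09 CPM in bystanders against 85.8 ± 2.04 in untreated cells, 85.0 ± 4.19 in responders and 83.7 ± 2.47 in the pool (SD, n = 4 each), 1.39-fold lower in responders than in bystanders (adjusted p = 2.62e-21, edgeR). Aldoa, which supplied a mean of 97.8% ± 0.0378 (SD, n = 4) of the aldolase level per kilobase in bystanders and more in the other groups, differed between the gates by a log2 of 0.042 (adjusted p = 0.0185), a call that was lost without bystander replicate 2 and that turned to -0.15 with library totals alone. For responder against bystander, Tpi1 (triose phosphate isomerase), Pgk1 (phosphoglycerate kinase) and Eno1 (enolase) had log2 folds of 0.073, 0.14 and 0.21 (adjusted p = 0.000157, 7.42e-11 and 9.49e-19, edgeR), and with library totals alone Tpi1 and Pgk1 turned to -0.12 and -0.052 while Eno1 came to 0.024. Gpi1 (glucose phosphate isomerase) and Pkm (pyruvate kinase) were lower in responders, by 0.15 and 0.069 on the log2 scale (adjusted p = 4.13e-10 and 0.000225, edgeR), under both scalings. Pgam1 (phosphoglycerate mutase) had no call, with a log2 fold of 0.011 (95% interval -0.026 to 0.047, adjusted p = 0.633). Against untreated cells the pool had log2 folds of 0.26 for Aldoa, 0.18 for Tpi1, 0.29 for Pgk1, 0.21 for Eno1 and 0.074 for Pkm, all called by edgeR with TMM and all of the opposite sign with library totals alone.

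Gapdh, glyceraldehyde 3-phosphate dehydrogenase (chromosome 6, 125161852 to 125166467), stood at 222, 236, 239 and 233 CPM in untreated libraries 1 to 4, at 222, 245, 250.1 and 236 in bystanders, at 258, 262, 264 and 265 in responders and at 262, 244, 279 and 268 in the LPS pool. Responders lay above all bystanders, while the pool overlapped responders and bystanders. Its log2 fold was 0.14 for responder against bystander (SE 0.039, adjusted p = 0.00503, edgeR) and 0.18 for pool against untreated (adjusted p = 0.00075), and both turned with library totals alone, to -0.053 and -0.15. Gapdh has many pseudogene copies in the mouse genome, of which Gapdh-ps15 had 10 to 50 reads per library, and how reads that match several copies were counted is not given in the sources used here. In untreated libraries Gapdh stood at 233 CPM over a principal transcript of 1420 bases, beside 2492 CPM over 1511 bases for Aldoa, and its level is uncertain for this reason. Reads may also be split between Eno1 and its near-identical copy Eno1b, which had 1049 to 1985 reads per library.

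Summed over the 15 members from hexokinase to pyruvate kinase, the enzymes took 2.54% ± 0.0197 of all counts in untreated libraries, 2.44% ± 0.0101 in bystanders, 2.29% ± 0.0179 in the pool and 2.21% ± 0.0217 in responders (SD, n = 4 each), without overlap between groups. On the TMM scale the order was the opposite: the sum was 21732 ± 175 CPM in untreated libraries, 23901 ± 109.8 in bystanders, 24612 ± 227 in the pool and 24673 ± 161 in responders, the last 2 within their spread. The direction of the pathway's summed transcript level under LPS therefore depended on the scaling, and leaving out Gapdh gave shares of 2.51%, 2.42%, 2.27% and 2.19% in the same order of groups.

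**Figure D3:**
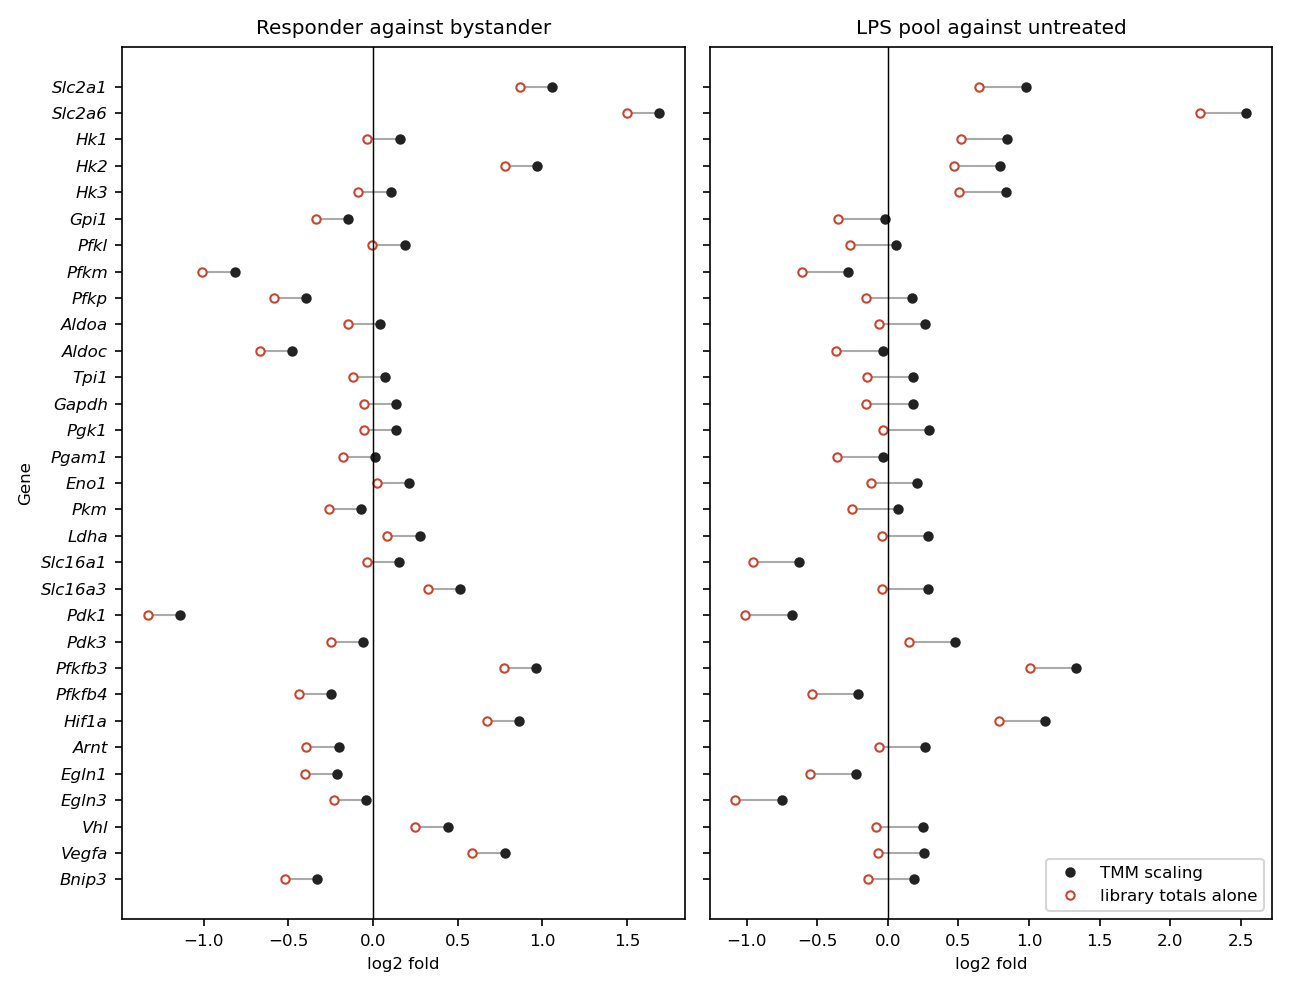
Log2 fold of each tested member for responder against bystander (left) and LPS pool against untreated (right), with TMM scaling (filled) and library totals alone (open). Every member shifts to the left by about the same step, so those near 0 change side while Slc2a6, Slc2a1, Hk2, Pfkfb3, Hif1a and Pdk1 do not.

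Pfkfb3 and Pfkfb4 encode bifunctional enzymes that make and break fructose 2,6-bisphosphate, the activator of phosphofructokinase, and Pfkfb3 is the form in which the making activity prevails. Pfkfb3 (chromosome 2, 11471430 to 11554071) stood at 46.2, 42.3, 44.8 and 44.4 CPM in untreated libraries 1 to 4, at 69.0, 65.5, 68.5 and 67.5 in bystanders, at 127, 130.4, 134 and 136 in responders and at 113, 114, 113 and 106 in the LPS pool. All 4 groups were apart, with responders highest. The fold was 1.95 for responder against bystander (log2 0.96, SE 0.031, adjusted p = 3.67e-36, edgeR), 2.52 for pool against untreated (adjusted p = 7.28e-42) and 1.52 for bystander against untreated (adjusted p = 4.27e-23). Pfkfb4 was low in every group, at 19.6 ± 1.03 CPM in bystanders and 16.5 ± 0.685 in responders (SD, n = 4 each, log2 -0.25, adjusted p = 0.000466), and this call was lost in the 6 libraries with neural transcripts. Per kilobase the share of Pfkfb3 in both was 64.4% ± 0.664 in untreated cells, 72.2% ± 1.48 in bystanders, 85.7% ± 0.851 in responders and 84.0% ± 0.688 in the pool (SD, n = 4 each).

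Lactate dehydrogenase was almost entirely the A subunit. Ldha (chromosome 7, 46842274 to 46855627) stood at 3805, 3787, 3814 and 3727 CPM in untreated libraries 1 to 4, at 3954, 3960.5, 3831 and 3868 in bystanders, at 4745, 4755, 4712 and 4677 in responders and at 4606, 4604, 4556 and 4710.4 in the LPS pool. Responders and pool lay above bystanders and untreated cells without overlap. Responders were 1.21-fold above bystanders (log2 0.27, SE 0.017, adjusted p = 9.49e-23, edgeR), and this was 0.085 with library totals alone. The pool was 1.22-fold above untreated cells (adjusted p = 8.88e-24), which turned to a log2 of -0.040 with library totals alone. Ldhb, the other subunit gene, had 0 to 4 reads per library and was not tested.

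The monocarboxylate transporters, which carry lactate across the membrane, differed in their response: in responders and the pool Slc16a3 was called above and Slc16a1 below untreated cells, and in bystanders both were called below. Slc16a3, the MCT4 exporter gene, stood at 629.6, 633, 656 and 638 CPM in untreated libraries, 573, 566, 581 and 576 in bystanders, 835, 825, 800.1 and 816 in responders and 799.9, 790.3, 767 and 763 in the pool. Bystanders lay below and responders above untreated cells, with no overlap. Responders were 1.43-fold above bystanders (log2 0.51, SE 0.020, adjusted p = 1.95e-32, edgeR), and the log2 folds against untreated were 0.36 in responders and -0.15 in bystanders, of which the first turned to -0.025 with library totals alone. The pool's 0.29 turned to -0.040. Slc16a1, the MCT1 gene (chromosome 3, 104638664 to 104658462), stood at 185, 196, 179 and 176 CPM in untreated libraries 1 to 4, at 102, 99.8, 94.4 and 94.7 in bystanders, at 101, 114, 113 and 106 in responders and at 113, 118, 123 and 123 in the LPS pool. Every LPS-treated library lay below every untreated one, and responders overlapped bystanders. It was 1.55-fold lower in the pool than in untreated cells (log2 -0.63, SE 0.037, adjusted p = 2.87e-15, edgeR), 1.89-fold lower in bystanders and 1.69-fold lower in responders. The difference between the gates (0.16, adjusted p = 0.00086) turned to -0.035 with library totals alone. Per kilobase, Slc16a3 made up 78.0% ± 1.00 of the 2 transporters in untreated cells, 85.7% ± 0.585 in bystanders, 88.5% ± 0.675 in responders and 87.0% ± 0.694 in the pool (SD, n = 4 each).

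The pyruvate dehydrogenase kinases, which shut pyruvate out of the mitochondrial oxidation route, included the largest fall between the gates among the members. Pdk1 (chromosome 2, 71873215 to 71903858) stood at 178, 175, 174 and 172 CPM in untreated libraries 1 to 4, at 227, 216, 219.8 and 215 in bystanders, at 93.5, 102, 100.5 and 103 in responders and at 114, 109, 107 and 105 in the LPS pool. Bystanders were highest and responders lowest, and no groups overlapped. Pdk1 was 2.201-fold lower in responders than in bystanders (log2 -1.14, SE 0.028, adjusted p = 4.7e-43, edgeR), 1.60-fold lower in the pool than in untreated cells (adjusted p = 9.69e-31) and 1.25-fold higher in bystanders than in untreated cells (adjusted p = 1.35e-17). Pdk3, in contrast, was raised over untreated cells (23.0 ± 1.69 CPM) in bystanders (34.6 ± 1.23), responders (33.3 ± 2.35) and the pool (31.8 ± 1.51; SD, n = 4 each). The log2 fold between the gates was -0.057 (95% interval -0.16 to 0.043, adjusted p = 0.324, edgeR), and -0.25 with library totals alone (adjusted p = 1.99e-05). Bystanders lay above the pool by 0.12 (adjusted p = 0.0475, edgeR), a call near the threshold. Their libraries overlapped, with the lowest bystander library at 32.8 CPM and the highest pool library at 33.2. The share of Pdk1 in both kinases per kilobase was 75.6% ± 1.34 in untreated cells, 72.1% ± 1.14 in bystanders, 55.0% ± 2.27 in responders and 58.2% ± 0.859 in the pool (SD, n = 4 each).

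Among the regulators of the hypoxia response, the alpha subunit rose and the others moved by less or fell. Hif1a (chromosome 12, 73901324 to 73947554) stood at 102, 102, 101 and 101 CPM in untreated libraries 1 to 4, at 148, 151, 144 and 148 in bystanders, at 266, 260.3, 273 and 273 in responders and at 214, 224, 223 and 217 in the LPS pool. The 4 groups were apart, in the order untreated, bystander, pool, responder. Hif1a was 1.82-fold higher in responders than in bystanders (log2 0.86, SE 0.024, adjusted p = 5.53e-40, edgeR), 2.16-fold higher in the pool than in untreated cells (adjusted p = 9.51e-45) and 1.45-fold higher in bystanders than in untreated cells (adjusted p = 2e-27). Arnt, its partner, was raised most in bystanders, at 34.9 ± 0.764 CPM against 24.1 ± 1.27 in untreated cells and 30.2 ± 0.642 in responders (SD, n = 4 each). Its log2 fold was -0.20 for responder against bystander (adjusted p = 0.000155, edgeR), and the rise in the pool (0.26) turned to -0.063 with library totals alone. The oxygen sensor gene Egln3 (chromosome 12, 54178981 to 54203874) stood at 33.1, 35.9, 33.6 and 35.2 CPM in untreated libraries 1 to 4, at 20.6, 19.4, 20.5 and 20.4 in bystanders, at 19.1, 20.6, 18.7 and 20.3 in responders and at 20.7, 20.4, 20.5 and 20.3 in the LPS pool. All LPS-treated libraries lay below the untreated ones and overlapped each other. Egln3 was 1.68-fold lower in the pool than in untreated cells (log2 -0.75, SE 0.053, adjusted p = 9.66e-20, edgeR), and the gates differed by -0.042 (95% interval -0.15 to 0.067, adjusted p = 0.514). Egln1, the main oxygen sensor, was lower in responders than in bystanders, at 71.7 ± 1.13 against 83.1 ± 1.47 CPM (SD, n = 4 each, log2 -0.21, adjusted p = 2.25e-08, edgeR), and bystanders had no call against untreated cells. Vhl, the substrate receptor of the ligase, was 1.36-fold higher in responders than in bystanders (adjusted p = 5.33e-10, edgeR), at 31.6 ± 1.44 against 23.3 ± 1.46 CPM (SD, n = 4 each).

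Vegfa and Bnip3, a growth factor gene and a mitophagy gene that both count as hypoxia targets, parted between the gates. Vegfa (chromosome 17, 46016993 to 46032377) stood at 63.3, 61.5, 61.4 and 64.9 CPM in untreated libraries 1 to 4, at 51.2, 47.4, 47.4 and 49.2 in bystanders, at 83.9, 81.7, 84.0 and 84.3 in responders and at 76.7, 76.7, 74.5 and 72.1 in the LPS pool. Bystanders lay below and responders above the untreated libraries, with no overlap. The fold was 1.71 for responder against bystander (log2 0.78, SE 0.035, adjusted p = 4.65e-29, edgeR), and against untreated cells the log2 fold was 0.41 in responders and -0.37 in bystanders (adjusted p = 2.57e-17 and 6.5e-14). The pool's difference from untreated cells, 0.26, turned to -0.070 with library totals alone. Bnip3 stood at 153, 152, 153 and 153 CPM in untreated libraries, 235, 238, 226 and 232 in bystanders, 179, 191, 187 and 182 in responders and 176, 170.0, 169.6 and 179.8 in the pool. Here bystanders were highest, and responders were 1.26-fold below them (log2 -0.33, SE 0.024, adjusted p = 3.41e-19, edgeR). Bystanders were 1.52-fold above untreated cells (adjusted p = 1.82e-31), and the smaller rise in responders (0.27) turned to -0.11 with library totals alone.

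The comparison of the gates and that of pool and untreated cells share no library, and members can be set side by side in both. In both, 17 members were called higher, against 23% of all genes tested, and 4 were called lower (Pfkm, Pdk1, Pfkfb4 and Egln1), against 23.1% of all genes. Called so under both scalings were 5 of the 17 (Hif1a, Hk2, Pfkfb3, Slc2a1 and Slc2a6) and all 4 of the lower ones. Library totals lowered the median log2 fold of all genes in both comparisons, from -0.01 to -0.20 and from -0.03 to -0.36. Lower calls are therefore kept more readily than higher ones. The share of all genes called alike under both scalings was not computed. Another 4 members, Pfkp, Pkm, Arnt and Bnip3, were lower in responders than in bystanders but higher in the pool than in untreated cells, and Slc16a1 was the reverse. Gpi1 and Aldoc were lower in responders with no call for the pool, Pdk3 was higher and Egln3 lower in the pool with no call between the gates, and Pgam1 had no call in either. On library totals Pfkp, Pkm, Arnt and Bnip3 were below 0 in both comparisons.

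**Figure D4:**
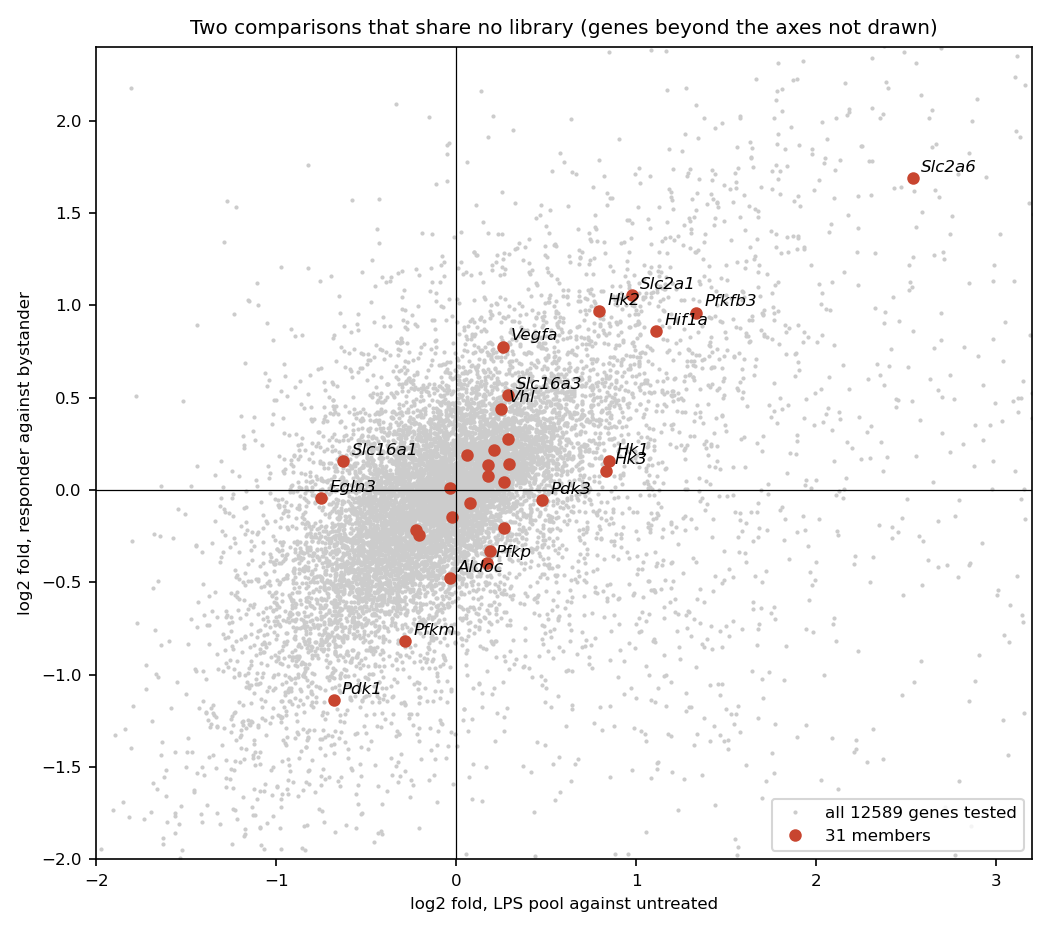
Log2 fold of each gene for LPS pool against untreated (horizontal) and responder against bystander (vertical), comparisons with no library in common; grey points are all genes tested and red points the 31 members. Slc2a6 lies at the upper right, Pdk1 and Pfkm at the lower left, and Hk1 and Hk3 lie far to the right near 0 on the vertical axis.

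Each gate was also compared with the same untreated libraries, so these values share their controls and are given side by side. The untreated cells were ungated and collected later, so LPS, the gate and the order of collection cannot be told apart here. Responders had 23 members higher and 7 lower than untreated cells, beside 36.5% and 38.5% of all genes (75% in either direction), and bystanders 20 higher and 5 lower, beside 34.1% and 32.9% (67.1%). Libraries did not overlap for 28 members in responders and 26 in bystanders, against 69.2% and 60.7% of all genes, and 10 and 9 members were called and at least 1.5-fold apart, against 32.7% and 21.9%. Most called members thus lay less than 1.5-fold from untreated cells in either gate. Scaled by library totals alone, the members called higher and lower were 8 and 18 in responders and 12 and 15 in bystanders. Of all 12589 genes tested, 2286 and 8238 were so called in responders and 2491 and 6576 in bystanders. Pfkl, Slc16a3 and Vegfa were called above untreated cells in responders and below them in bystanders, and Gpi1, Pfkm and Pdk1 were the other way round. With library totals alone, responders came to -0.30 for Pfkl and -0.025 for Slc16a3 and bystanders to -0.11 for Gpi1, so for these 3 both gates then lay below untreated cells, whereas for Pfkm and Pdk1 the opposite calls were made under both scalings. Vegfa kept its signs, at 0.027 in responders (adjusted p = 0.461) and -0.56 in bystanders. Bystander levels of Hif1a, Slc2a6, Hk1, Hk3, Pfkfb3, Pfkp, Bnip3, Aldoc, Arnt, Pdk1, Pdk3 and Pfkm exceeded untreated levels with either scaling.

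**Figure D5:**
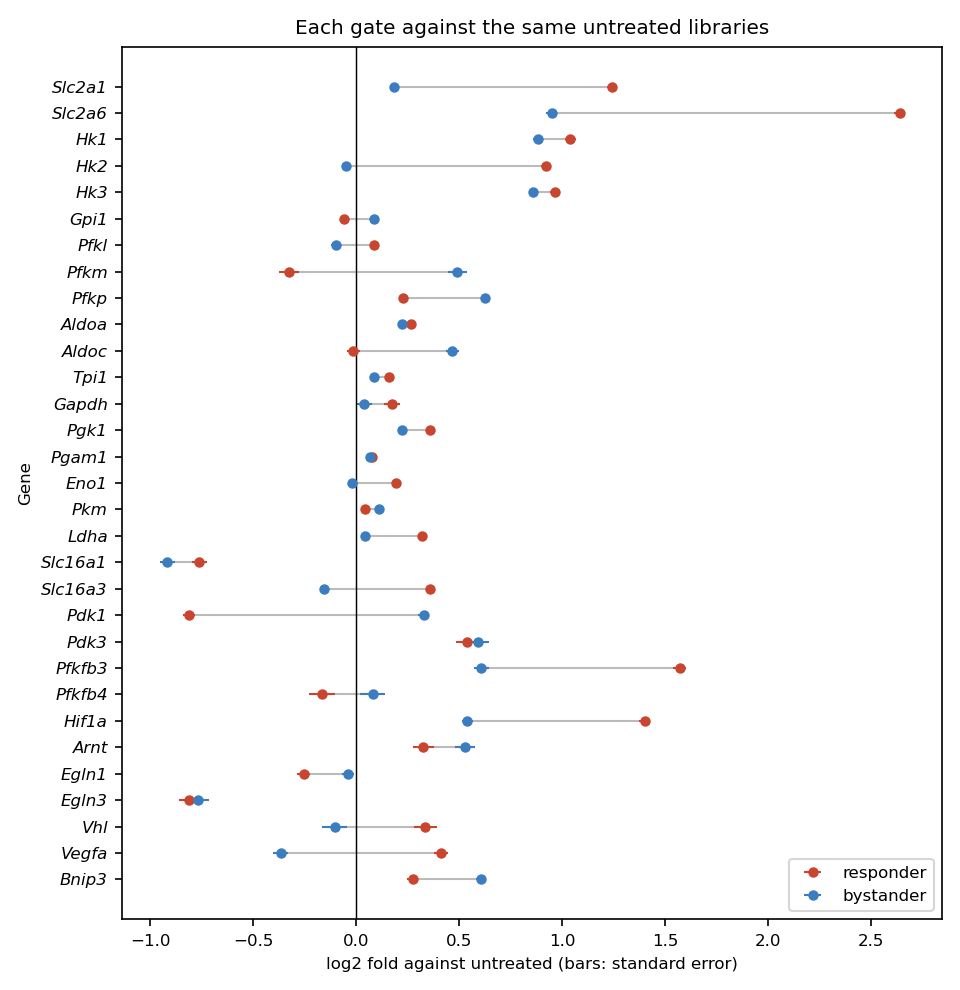
Log2 fold of each tested member against the same 4 untreated libraries, in responders (red) and bystanders (blue), with standard errors as bars. The gates lie far apart for Slc2a1, Slc2a6, Hk2, Pfkfb3, Hif1a and Pdk1 and close together for Hk1, Hk3, Slc16a1, Pdk3 and Egln3.

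The ungated pool lay nearer to the responders. Responders differed from it in 13 members that were higher and 2 that were lower, beside 16% and 9.49% of all genes (25.5% in either direction), and 0 of these differences reached 1.5-fold, against 1.02% of all genes. With library totals alone 8 members were higher and 8 lower, beside 1073 and 2438 of the 12589 genes tested. Bystanders had 12 members higher and 16 lower than the pool, beside 34.1% and 32.9% (67%), 7 of them at least 1.5-fold apart, against 20.3%. With library totals alone the balance was the reverse, with 17 higher and 11 lower, beside 5951 and 2755 of the 12589 genes. Libraries did not overlap for 12 members in the first comparison and 25 in the second, against 23.6% and 59.4% of all genes. Over the 8 members called and at least 1.5-fold apart between the gates, the pool stood at a median of 79.2% of the way from the bystander to the responder level, and over the 3023 such genes at 84.7%. Among these members the position ran from 59.6% for Hif1a to 95.8% for Pfkm. Hif1a was 1.22-fold higher in responders than in the pool (log2 0.29, adjusted p = 1.79e-15, edgeR), Slc2a1 1.20-fold and Pfkfb3 1.18-fold, and these were also called with library totals alone. The count of members lower in responders than in the pool was 2 (Pdk1 and Slc16a1), 1 without LPS pool replicate 3.

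Other genes of the same pathways were followed on lists. Their counts between the gates are to be read beside the 34.7% of all genes called higher and 35.3% called lower. With library totals alone, 2580 of the 12589 genes tested were higher and 6695 lower between the gates. Of 13 tested genes for other HIF subunits, oxygen sensors and the VHL ligase, 10 were higher and 3 lower in responders than in bystanders (median log2 0.19, all genes -0.01), or 6 and 4 with library totals alone. Epas1, the HIF-2 alpha gene, was at 18.0 ± 0.988 CPM in bystanders and 4.75 ± 0.893 in responders (SD, n = 4 each), a log2 fold of -1.93 (adjusted p = 3.86e-28, edgeR), opposite in direction to Hif1a. Hif1an, the asparaginyl hydroxylase that inhibits HIF, had a log2 fold of -0.45 (adjusted p = 1.68e-13), and Siah2, a ubiquitin ligase for the prolyl hydroxylases, 0.87 (adjusted p = 2.96e-16). Arnt2, a paralogue of Arnt, rose from 4.27 ± 0.721 CPM in untreated cells to 11.5 ± 0.214 in bystanders and 15.7 ± 0.830 in responders (SD, n = 4 each), with a log2 fold of 0.46 between the gates (adjusted p = 1.09e-06, edgeR). The alpha subunits thus moved apart between the gates.

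Of 31 further hypoxia-response targets, 13 were higher and 10 lower in responders than in bystanders (11 and 14 with library totals alone), beside 34.7% and 35.3% of all genes. Edn1, the endothelin gene, stood at 4.40 ± 0.652 CPM in bystanders and 52.2 ± 2.17 in responders (SD, n = 4 each), with a log2 fold of 3.55 (adjusted p = 1.43e-48, edgeR). At the other end were Adm, the adrenomedullin gene, at -1.05 (adjusted p = 6.82e-18), and Selenbp1, a selenium-binding protein gene, at -1.57 (adjusted p = 2.46e-28). In the pool against untreated cells 12 were higher and 12 lower, beside 34.1% and 37.8% of all genes. With library totals alone these counts were 8 and 19, beside 2216 and 8027 of the 12589 genes tested.

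Around pyruvate, 2 of 11 tested genes for its entry into mitochondria were higher and 6 lower in responders than in bystanders, and 2 and 8 with library totals alone. Mpc1, a subunit of the mitochondrial pyruvate carrier, had a log2 fold of 0.47 (adjusted p = 5.6e-08, edgeR), and its partner Mpc2 one of -0.20 (adjusted p = 0.000491). Dld, the E3 subunit shared by several dehydrogenases, and Pdhx, the E3-binding protein, had log2 folds of 0.33 and -0.16 (adjusted p = 4.84e-19 and 0.00135). Of the 11 genes, 2 were called and at least 1.5-fold apart between the gates, against 24% of all genes. The genes named here were not among them. Of the 9 genes of the pentose phosphate pathway, which branches off at glucose 6-phosphate, 5 were higher and 3 lower, and 3 and 3 with library totals alone. Tigar, a fructose bisphosphatase that diverts sugar into this branch, was at 83.2 ± 2.55 CPM in untreated cells, 45.9 ± 1.78 in bystanders and 78.8 ± 1.61 in responders (SD, n = 4 each), with a log2 fold of 0.78 between the gates (adjusted p = 1.73e-28, edgeR). G6pdx, the entry enzyme of the branch, had 0.33 (adjusted p = 5.62e-21), and Tkt (transketolase) and Pgls (6-phosphogluconolactonase) had -0.052 and -0.23 (adjusted p = 0.00813 and 0.0126).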

How the data were processed

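Total RNA of 16 libraries in 4 groups of 4 was sequenced. The deposited values are whole-number raw counts of reads for each gene, in 1 table. The submitters' processing notes name HISAT2 2.2.2, featureCounts 2.1.1, fastp 1.1.0 and cutadapt 3.7, and the mouse build GRCm38 (mm10). Not given in the sources used here were annotation, strandedness and the handling of reads with several matches. The table held 27179 Entrez identifiers, of which 25275 found a symbol in RefSeq's table for GRCm38.p6. The remaining 1904 held 0.399% of counts and were tested under their number. There were 3 empty columns.

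The members, lists, markers and tests were chosen with earlier results of these data known. Counts were fitted with edgeR 4.0.16 (R 4.3.3): filterByExpr, TMM scaling, 1 robust quasi-likelihood model of all 16 libraries with a mean per group, and two-sided F tests for 6 contrasts with Benjamini-Hochberg adjustment over 12589 genes at 0.05. Adjusted p-values without another name come from it. The fit was tested on simulated counts. All 32 members are named. Values are given library by library for members called and at least 1.5-fold apart between the gates or between pool and untreated cells at a mean of at least 5 CPM, and for Hif1a, Gapdh and Ldha. Slc16a3 and Bnip3 were added after their values were seen. Of each related list the 2 highest and 2 lowest called folds between the gates at 5 CPM or more are named, except for genes not reported here. Levels per kilobase use the longest principal transcript of GENCODE, and shares are of the named genes alone. Promoters are the first RefSeq entry of each gene. Alternatives were library totals alone, RLE factors, DESeq2 1.42.0, limma 3.58.1 with voom, no filter, a filter of 5 CPM in 4 libraries, the 2 groups alone, a replicate block and leaving out each library. The fits split by Dcx reads (10 or more) were chosen after seeing the data.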

Additional observations from a re-analysis of the deposited data

Results flagged for a closer look

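In 6 of 124 groups of 4 libraries, 1 library lay apart from the other 3 by more than Dixon's 95% critical ratio allows, and chance gives about 1 in 20. They were Gpi1 in responder replicate 1 (high, 1398 CPM), Eno1 in bystander replicate 3 (high, 4308 CPM), Pfkfb3 in LPS pool replicate 4 (low, 106 CPM), Egln1 in LPS pool replicate 4 (high, 76.7 CPM), Egln3 in bystander replicate 2 (low, 19.4 CPM) and Vegfa in responder replicate 2 (low, 81.7 CPM). Of these, responder 1, bystander 3 and LPS pool 4 belong to the libraries with Dcx reads, and bystander 2 and responder 2 do not.

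Against the same untreated libraries, 6 members were called in opposite directions in the gates, beside 9.13% of all genes tested, and the difference between the gates was itself tested by edgeR. For responder against bystander the log2 fold was -1.14 for Pdk1 (adjusted p = 4.7e-43), -0.82 for Pfkm (1.83e-23), 0.78 for Vegfa (4.65e-29), 0.51 for Slc16a3 (1.95e-32), 0.19 for Pfkl (4.82e-12) and -0.15 for Gpi1 (4.13e-10). The first 3 were also called in the same direction between the gates with library totals alone, as were Slc16a3 and Gpi1, whereas Pfkl came to -0.0035.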

How the results depend on the processing

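The 186 log2 folds of the 31 tested members over 6 comparisons were recomputed under each alternative, and on leaving out a library the 93 that involve its group. Changes of sign were counted only for folds called in the main fit or in the alternative. With library totals alone 48 such folds changed sign, which follows from a shift of all genes together. For responder against bystander these were Hk1 -0.034, Hk3 -0.086, Pfkl -0.0035, Aldoa -0.15, Tpi1 -0.12, Gapdh -0.053, Pgk1 -0.052, Pgam1 -0.18 and Slc16a1 -0.035. For LPS pool against untreated these were Pfkl -0.27, Pfkp -0.15, Aldoa -0.064, Tpi1 -0.15, Gapdh -0.15, Pgk1 -0.033, Eno1 -0.12, Pkm -0.25, Ldha -0.040, Slc16a3 -0.040, Arnt -0.063, Vhl -0.081, Vegfa -0.070 and Bnip3 -0.14. For responder against untreated these were Pfkl -0.30, Pfkp -0.15, Aldoa -0.12, Tpi1 -0.22, Gapdh -0.21, Pgk1 -0.025, Pgam1 -0.31, Eno1 -0.19, Pkm -0.34, Ldha -0.064, Slc16a3 -0.025, Arnt -0.058, Vhl -0.048 and Bnip3 -0.11. For bystander against untreated these were Slc2a1 -0.0073, Gpi1 -0.11, Tpi1 -0.11, Gapdh -0.16, Pgam1 -0.13, Pkm -0.083 and Ldha -0.15. For responder against pool it was Aldoa -0.053. For bystander against pool these were Aldoa 0.094, Tpi1 0.044 and Pgk1 0.061. Counts of higher and lower members with library totals alone were 9 and 17 for responder against bystander, 8 and 19 for pool against untreated, 8 and 18 for responder against untreated, 12 and 15 for bystander against untreated, 8 and 8 for responder against pool and 17 and 11 for bystander against pool. By this count RLE factors, DESeq2, voom and both other filters changed no sign. Leaving out 1 library at a time gave 17 to 18 higher and 10 lower members for responder against bystander, 22 and 6 for pool against untreated, 22 to 23 and 6 to 7 for responder against untreated, 19 to 20 and 5 to 6 for bystander against untreated, 12 to 13 and 1 to 3 for responder against pool and 10 to 11 and 15 to 16 for bystander against pool. Of these 1488 folds, 1452 kept their call or stayed without one, 30 lost their call and 6 gained one. By the same count 0 changed sign. For responder against pool, 4 members were lower with only the 2 groups fitted, and 8 were higher in the libraries with neural transcripts, where Gpi1 for responder against untreated came to 0.0055. In those fits untreated cells and responders have 1 library each, assumed to vary like the other groups; the cause was not tested.

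Same-numbered replicates showed no clear pairing (24 pairs, correlations from -0.02 to 0.19, median 0.020 against -0.0095 for other pairs, 7 of 16 libraries closest to their own number), and the numbers were not used as pairs; the replicate block gave 11 instead of 12 higher members for bystander against pool and changed no other call. Ldhb, with 0 to 4 reads per library, did not pass the filter on low counts and was not tested in the main fit.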

Other observations

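Genes of glycogen handling and of the way back to glucose were mostly lower in responders. Of 13 tested, 2 were higher and 10 lower than in bystanders (the same counts with library totals alone; median log2 -0.37, all genes -0.01), beside 34.7% and 35.3% of all genes called higher and lower. Gys1, the glycogen synthase gene, and Pgm1 (phosphoglucomutase) were higher, at 123 ± 2.47 against 89.8 ± 4.31 CPM and 222 ± 5.84 against 171 ± 2.52 CPM (SD, n = 4 each), with log2 folds of 0.45 and 0.38 (adjusted p = 1.98e-20 and 1.25e-21, edgeR). Pgm2l1, which makes glucose 1,6-bisphosphate, was lower, with a log2 fold of -1.21 (adjusted p = 7.26e-27).

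Among 12 other regulators of glycolysis genes, 5 were higher and 3 lower in responders than in bystanders, beside 34.7% and 35.3% of all genes. Scaling by library totals gave 3 and 6, beside 2580 and 6695 of the 12589 genes tested. Txnip, which encodes an inhibitor of glucose uptake, stood at 206 ± 3.36 CPM in untreated cells, 285 ± 4.56 in bystanders, 123 ± 2.57 in responders and 134 ± 3.45 in the pool (SD, n = 4 each). Its log2 fold between the gates was -1.21 (adjusted p = 1.04e-47, edgeR), opposite in direction to Slc2a1. Myc, a transcription factor gene that acts on glycolytic genes, stood at 0.760 ± 0.229 CPM in untreated cells. It was at 2.97 ± 0.181 in bystanders and 14.9 ± 1.68 in responders (SD, n = 4 each). Its log2 fold between the gates was 2.32 (adjusted p = 3.62e-28, edgeR), and its levels in untreated cells and bystanders were below 5 CPM. Trim35, a ubiquitin ligase gene, had 0.51 and Rptor, a subunit gene of the mTORC1 kinase complex, -0.63 (adjusted p = 1.3e-23 and 7.97e-23).

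Of 19 other isoenzymes and sugar transporters tested, 7 were higher and 8 lower in responders than in bystanders, beside 34.7% and 35.3% of all genes. Scaling by library totals gave 2 and 11, beside 2580 and 6695 of the 12589 genes tested. Gpd2, the mitochondrial glycerol phosphate dehydrogenase gene, and Adpgk, an ADP-dependent glucokinase gene, had log2 folds of 0.52 and 0.34 (adjusted p = 5.11e-19 and 6.55e-10, edgeR). Pfkfb2, a relative of Pfkfb3, and Slc2a8, the GLUT8 gene, had -0.94 and -1.08 (adjusted p = 1.9e-13 and 1.09e-12).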
